A study of Mus musculus with 9 samples.

Results

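Clu, Cd44, Spp1, Epcam, Prom1, Vim, Anxa3, Mmp7 and Dclk1 are 9 mouse genes used as markers of injured or regenerating epithelium. They were picked by gene symbol from a table of 17132 pancreatic genes, each symbol matched 1 row, and all 9 passed the filter on low counts that left 12828 genes for testing. The values come from whole pancreas of 9 wild-type C57BL/6 mice with a labelled body weight of 22 to 25 g, 3 mice in each group, with their age not stated in the labels. Caerulein is a peptide that acts like cholecystokinin. QYD mice were injected into the peritoneum with caerulein, once an hour for 7 injections at a dose written as 50 mg/kg. The last injection also held lipopolysaccharide (LPS), and the mice received the herbal Qingyi Decoction 0 and 8 h into the procedure. Model mice had the same caerulein and LPS injections and saline in place of the decoction. Control mice had saline injections and saline treatment. Every pancreas was collected at 24 h. Mice are named by the numbers in the sample titles.

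After acute damage, pancreatic acinar cells lose enzyme expression and can take on features of duct cells, and duct cells themselves respond to injury. Clusterin, CD44 and osteopontin are commonly used to mark such epithelium, EpCAM and prominin-1 sit on the surface of duct and other simple epithelia, and vimentin is chiefly a filament of mesenchymal and blood-derived cells. In whole tissue, more RNA of a gene can come from more cells of a type or from more RNA per cell, and these cannot be told apart.

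Levels below are CPM, counts divided by library size and then by edgeR's TMM factor, which sets libraries equal for the typical gene, so a CPM is not a share of reads. The 50 most abundant genes took on average 69.0% of counts in QYD, 66.8% in Model and 91.1% in Control libraries. Scaling by library totals alone, without TMM, moved the median log2 fold change of all genes up by 2.15 for Model versus Control, up by 2.03 for QYD versus Control and by -0.12 for QYD versus Model, so each change is relative to the typical gene. Control 45 stood apart from the other saline libraries: the summed level of 16 neutrophil markers was 810 CPM there, against 60.7 in Control 43 and 64.6 in Control 44. Of these markers, S100a8 and S100a9 had 9.79 and 11.7 CPM in Control 45, so other markers on the list made up most of the sum. They had 3.08 and 3.08 CPM in Control 43 and 1.91 and 2.55 in Control 44. What the sum says about neutrophil number was not tested. Control 45 was the highest Control library for 7 of the 9 genes, all but Vim and Dclk1. Acinar markers, the identity of the labelled tissue, were present in all libraries, with sums of 17 markers at 189557 to 267917 CPM in QYD, 194542 to 255017 in Model and 1548820 to 1766990 in Control.

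The promoters of the genes were searched for letters of injury-related transcription factors, and those of Mmp7 and Prom1 are shown because Mmp7 had the largest fold changes and both hold an AP-1 type match at a start site. AP-1 is the Fos and Jun family of stress-induced factors. In the RefSeq GRCm38.p6 windows, 250 bases before to 50 after a start, capitals mark the letters TGANTCA on either strand. The Mmp7 window lies at chr9:7691840-7692139 on the plus strand and the Prom1 window at chr5:44101687-44101986 on the minus strand.
Mmp7: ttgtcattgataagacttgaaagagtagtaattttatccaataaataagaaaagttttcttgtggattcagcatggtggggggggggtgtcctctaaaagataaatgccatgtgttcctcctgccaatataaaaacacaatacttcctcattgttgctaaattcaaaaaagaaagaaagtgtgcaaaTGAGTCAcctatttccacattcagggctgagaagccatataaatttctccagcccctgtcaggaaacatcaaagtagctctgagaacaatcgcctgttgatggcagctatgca
Prom1: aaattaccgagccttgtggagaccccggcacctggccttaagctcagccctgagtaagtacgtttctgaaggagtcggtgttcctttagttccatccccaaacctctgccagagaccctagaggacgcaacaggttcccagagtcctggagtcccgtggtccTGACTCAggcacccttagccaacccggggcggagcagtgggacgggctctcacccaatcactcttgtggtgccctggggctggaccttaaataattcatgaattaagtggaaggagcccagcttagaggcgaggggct
The match began 63 bases before the start in Mmp7 and 88 bases before it in Prom1. A TATA box sequence (TATAAA, gene strand only) began 26 bases before the Mmp7 start, and another 123 bases before it. Windows of Vim and Spp1 also held TATAAA. In all 3 of 11 windows of the genes held it, beside 8.32% of all promoters. A second Prom1 start and a second Dclk1 start also held AP-1 type letters, so that 3 of the 7 genes with a promoter in the table had 1 in at least 1 window, or 4 of 11 windows. Among all 32851 promoters of the same length 7.81% held them. No window of the 7 genes held the TEAD letters GGAATG or the STAT letters TTCNNNGAA on either strand, which 14.7% and 8.3% of all promoters held. A match is a run of letters only.

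On the per-length scale, where genes can be set against each other, clusterin stood far above the rest in every group. Its mean was 10929 ± 1223 FPKM in QYD, 11980 ± 2626 in Model and 541 ± 333 in Control (SD, n = 3). Spp1 came next, with 219 ± 118 FPKM in QYD, 370 ± 206 in Model and 18.6 ± 6.6 in Control. In QYD and Model pancreas Mmp7 (98.0 and 83.9 FPKM) and Epcam (61.5 and 77.4) followed, and their library ranges overlapped in Model but not in QYD. Prom1, Vim and Anxa3 stood next at mean levels of 42.3, 39.8 and 25.4 FPKM in QYD and 40.9, 39.6 and 30.0 in Model, with overlapping ranges. Cd44 was lower, at 8.97 ± 2.32 FPKM in QYD and 11.8 ± 4.0 in Model, and Dclk1 lowest at 0.41 ± 0.21 and 0.31 ± 0.06. The order was different in Control, where Vim, at 7.32 ± 1.72 FPKM, followed Spp1, ahead of Epcam (4.44), Prom1 (3.65) and Mmp7 (2.58). There the range of Mmp7 overlapped those of Epcam, Prom1, Anxa3 and Cd44. FPKM carries the composition of each library, so these levels rank genes within a group.

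Model versus Control asks what caerulein with LPS changed. Of the 9 genes 7 rose, none fell and 2, Vim and Dclk1, did not pass edgeR's quasi-likelihood test at an adjusted p of 0.05 (Benjamini-Hochberg, over all tested genes). Over all tested genes 21.3% passed as higher and 21.3% as lower. The median log2 fold change of the 9 genes was 2.14, beside 0.04 for all tested genes. In QYD versus Control, which asks what differed from saline mice under the decoction, 8 of 9 rose and none fell, beside 20.5% higher and 20.3% lower of all tested genes, and the median was 1.77, beside 0.06. The Model and QYD libraries lay wholly above the Control libraries for 8 of the 9 genes in each comparison, all but Vim, beside 27.4% of all tested genes in Model versus Control and 27.8% in QYD versus Control. None of the 9 lay wholly below Control, beside 24.9% and 24.7% of all tested genes in the same order. On library totals alone all 9 values stayed positive, running from 2.44 for Vim to 5.02 for Mmp7 in Model versus Control and from 2.44 to 5.24 for the same genes in QYD versus Control. Both comparisons use the same Control libraries. Since the genes were chosen with earlier results of these data known, these shares are a description.

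**Figure D1:**
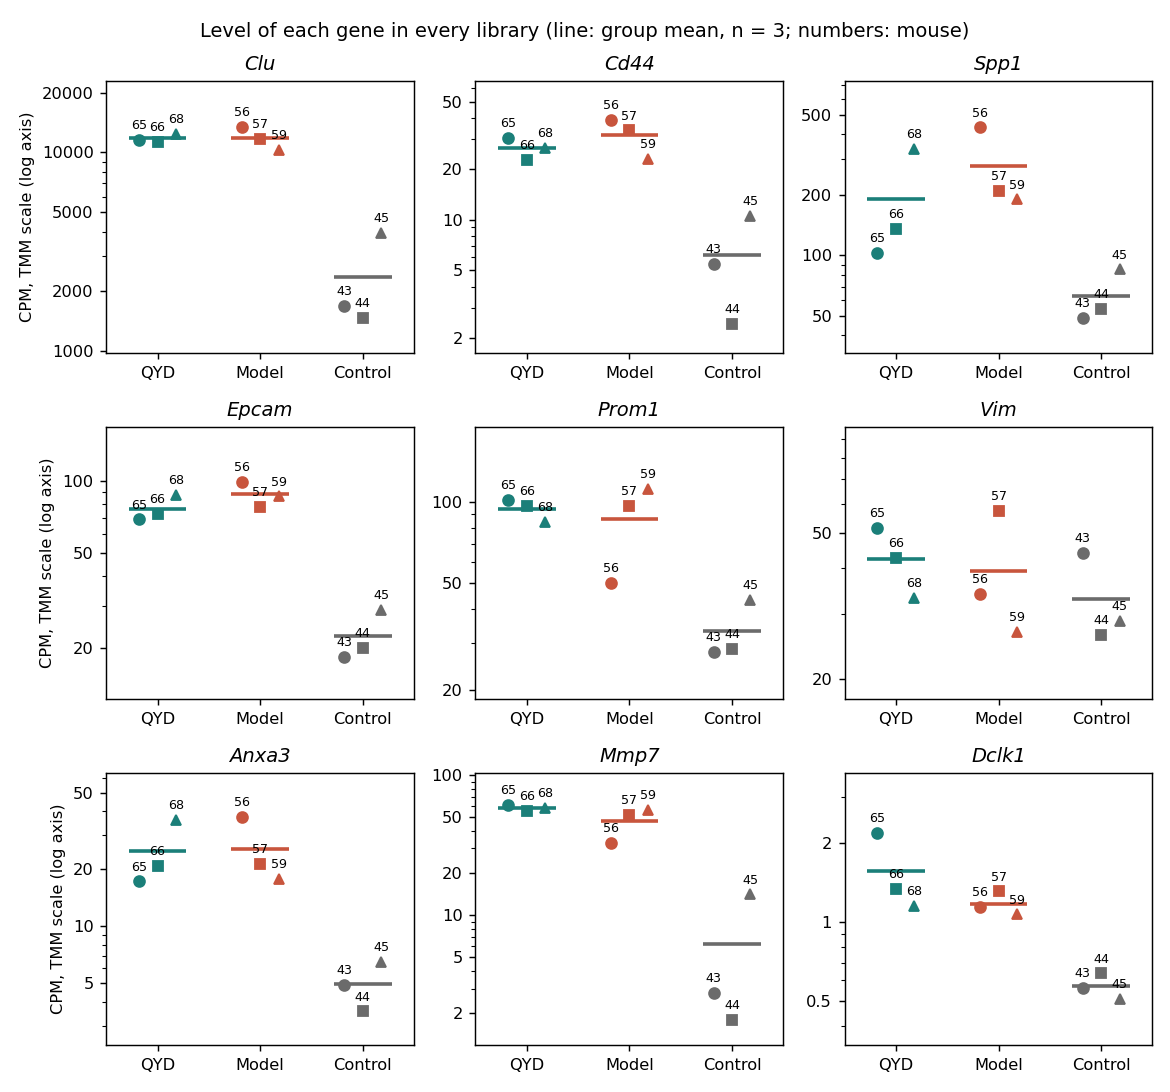
Level of each of the 9 genes in CPM on the TMM scale (log axis) in every library of QYD, Model and Control mice; points are mice with their numbers and lines are group means (n = 3). All genes but Vim lie higher in both injured groups than in Control, and Control 45 is the highest Control mouse for 7 of the 9.

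Among the genes for secreted proteins, Clu, Spp1 and Mmp7, all rose. Clusterin (Clu, an extracellular chaperone that binds misfolded proteins; chromosome 14, 65968483 to 65981548, plus strand) had 11581, 11322 and 12420.5 CPM in QYD 65, 66 and 68, 13456.5, 11698 and 10299 in Model 56, 57 and 59, and 1685, 1464 and 3933 in Control 43, 44 and 45. Every injured library was above every Control library, and the highest Control library was Control 45. Its log2 fold change was 2.32 ± 0.33 (SE) in Model versus Control (adjusted p = 0.000309, edgeR) and 2.32 ± 0.33 in QYD versus Control (adjusted p = 0.000361, edgeR). Without Control 45 these values were 2.91 and 2.90. As a share of all estimated counts, clusterin took 1.83% ± 0.21 in QYD, 2.02% ± 0.44 in Model and 0.091% ± 0.056 in Control libraries (SD, n = 3).

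Osteopontin (Spp1, a phosphorylated glycoprotein that binds integrins and CD44; chromosome 5, 104435111 to 104441053, plus strand) had 102, 135 and 336 CPM in QYD 65, 66 and 68, 432, 209 and 190 in Model 56, 57 and 59, and 48.9, 54.0 and 85.2 in Control 43, 44 and 45. Model 56 and QYD 68 were the highest, and QYD 65 was little above Control 45. It rose by 2.14 ± 0.46 log2 units in Model versus Control (adjusted p = 0.00341, edgeR). In QYD versus Control it rose by 1.61 ± 0.45 (adjusted p = 0.0152, edgeR), a call that was lost without QYD 68 (0.92, adjusted p = 0.0654), Control 43 (1.46, 0.0576) or Control 44 (1.51, 0.0616) in the same edgeR test.

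Matrilysin (Mmp7, a secreted metalloproteinase of glandular epithelium that cleaves matrix and cell-surface proteins; chromosome 9, 7692090 to 7699585, plus strand) had 61.4, 55.8 and 58.3 CPM in QYD 65, 66 and 68, 33.0, 52.2 and 56.5 in Model 56, 57 and 59, and 2.80, 1.78 and 14.1 in Control 43, 44 and 45. The QYD libraries lay close together, and Control 45 was far above the other Control libraries. Mmp7 had the largest fold changes of the 9 genes, 2.91 ± 0.52 log2 units in Model versus Control (adjusted p = 0.00117, edgeR) and 3.22 ± 0.52 in QYD versus Control (adjusted p = 0.000762, edgeR). Only 1.31% and 0.795% of tested genes had higher values. Without Control 45 they were 4.38 and 4.69.

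Transcripts for the surface proteins of the group, Cd44, Epcam and Prom1, rose as well. CD44, a receptor for the matrix sugar hyaluronan and for osteopontin (chromosome 2, 102811141 to 102901669, minus strand), had 30.4, 22.5 and 26.6 CPM in QYD 65, 66 and 68, 39.0, 33.9 and 23.0 in Model 56, 57 and 59, and 5.45, 2.42 and 10.6 in Control 43, 44 and 45. The injured libraries did not overlap with Control, where the spread relative to the mean was widest. The log2 fold changes of Cd44 were 2.38 ± 0.37 in Model versus Control (adjusted p = 0.000519, edgeR) and 2.11 ± 0.37 in QYD versus Control (adjusted p = 0.00123, edgeR), or 3.04 and 2.77 without Control 45. The table gives 1 value per gene, so the 9 annotated Cd44 transcripts, which differ in variable exons, were not separated. CD44 is also abundant on leukocytes, and the neutrophil marker sum was higher in injured than in Control libraries too. It ran from 3228 to 3425 CPM in QYD, from 2464 to 3679 in Model and from 60.7 to 810 in Control. In the injured libraries S100a8 had 28.7 to 67.8 CPM and S100a9 37.4 to 86.9 CPM. Other markers on the list thus made up most of the injured sums too. Model 56 had the highest Cd44 value but the lowest injured sum, while S100a8 and S100a9 were highest there within Model. The leukocyte gene Ptprc had 13.2, 11.6 and 8.98 CPM in QYD 65, 66 and 68. It had 5.87, 13.4 and 4.97 CPM in Model 56, 57 and 59, and 5.87, 2.04 and 6.10 in Control 43, 44 and 45. Ptprc in Model thus overlapped with Control. All 16 neutrophil markers listed were in the table, and Mpo alone was at 0 in all Control libraries. The part of neutrophils in the Cd44 values was not tested.

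EpCAM, an adhesion protein of simple epithelia (Epcam; chromosome 17, 87635979 to 87651127, plus strand), had 69.2, 73.0 and 87.8 CPM in QYD 65, 66 and 68, 99.6, 78.4 and 86.4 in Model 56, 57 and 59, and 18.3, 20.0 and 28.9 in Control 43, 44 and 45. The injured libraries lay far above Control, and in both comparisons with Control its standard errors were the smallest of the 9 genes. The log2 fold change was 1.98 ± 0.19 in Model versus Control (adjusted p = 2.48e-05, edgeR) and 1.77 ± 0.18 in QYD versus Control (adjusted p = 5.79e-05, edgeR). The summed level of duct markers was higher as well: the sum of 17 markers, all in the table and none at 0 in a whole group, ran from 1388 to 2357 CPM in QYD, from 1602 to 2503 in Model and from 798 to 897 in Control. Of these 17 markers 8 rose and 4 fell in Model versus Control, with a median log2 fold change of -0.01, whereas on library totals 14 were higher and 0 lower. The part of duct cells in the Epcam values was not tested.

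Prominin-1 (Prom1, a membrane protein of cell protrusions found on duct and progenitor cells; chromosome 5, 43993621 to 44102047, minus strand) had 102, 97.0 and 84.5 CPM in QYD 65, 66 and 68, 50.1, 97.1 and 112 in Model 56, 57 and 59, and 27.8, 28.5 and 43.2 in Control 43, 44 and 45. Model 56, the highest library for Spp1, was the lowest injured library for Prom1, and it still lay above all Control libraries. The gene rose by 1.38 ± 0.27 log2 units in Model versus Control (adjusted p = 0.00222, edgeR) and by 1.51 ± 0.27 in QYD versus Control (adjusted p = 0.00153, edgeR).

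Of the genes for intracellular proteins, Anxa3 rose in both comparisons with Control, Dclk1 passed in QYD versus Control and not in Model versus Control, and Vim passed in neither. Annexin A3 (Anxa3, a calcium-dependent binder of membrane phospholipids; chromosome 5, 96793385 to 96845968, plus strand) had 17.2, 20.7 and 36.1 CPM in QYD 65, 66 and 68, 37.6, 21.2 and 17.7 in Model 56, 57 and 59, and 4.89, 3.57 and 6.48 in Control 43, 44 and 45. As for Spp1, Model 56 and QYD 68 were the highest, and no injured library overlapped with Control. It rose by 2.36 ± 0.38 log2 units in Model versus Control (adjusted p = 0.000682, edgeR) and by 2.30 ± 0.38 in QYD versus Control (adjusted p = 0.000911, edgeR).

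Vimentin (Vim; chromosome 2, 13574311 to 13582826, plus strand) had 51.5, 42.7 and 33.3 CPM in QYD 65, 66 and 68, 34.1, 57.3 and 26.8 in Model 56, 57 and 59, and 44.03, 26.4 and 28.7 in Control 43, 44 and 45. All 3 groups overlapped. Its log2 fold change was 0.26 ± 0.29 in Model versus Control (adjusted p = 0.501, edgeR) and 0.37 ± 0.29 in QYD versus Control (adjusted p = 0.33, edgeR), with approximate 95% intervals of -0.45 to 0.96 and -0.34 to 1.07. On library totals alone the values were 2.44 in both comparisons and passed (adjusted p = 7.22e-06 and 7.69e-06, edgeR), close to the median of all genes on that scale, 2.19 and 2.09. Without Model 57 the Model versus Control value was -0.11. Macrophage and fibroblast markers were also highest in Model 57 among Model libraries: 20 macrophage markers summed to 434 CPM there, against 289 in Model 56 and 241 in Model 59, and 16 fibroblast and stellate cell markers to 531, against 400 and 329. The sums of T and NK cell markers (17.7 CPM, against 5.78 and 5.17), B cell markers (22.3, against 1.52 and 1.03), endothelial markers (139.7, against 107 and 117) and adipocyte markers (103, against 53.7 and 47.8) were highest in Model 57 too. The part of any of these cells in the Vim values was not tested.

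Dclk1 encodes a microtubule-associated kinase that marks tuft cells, which are rare chemosensory epithelial cells (chromosome 3, 55242303 to 55539068, plus strand). It had 75, 40 and 31 estimated counts in QYD 65, 66 and 68, 40, 44 and 31 in Model 56, 57 and 59, and 4, 5 and 4 in Control 43, 44 and 45, or 2.19, 1.34 and 1.15 CPM in QYD, 1.14, 1.31 and 1.07 in Model and 0.56, 0.64 and 0.51 in Control. The injured libraries lay above Control, at few counts in each. The log2 fold change was 1.46 ± 0.38 in QYD versus Control (adjusted p = 0.011, edgeR), and 1.04 ± 0.39 in Model versus Control, which did not pass (adjusted p = 0.0513, edgeR). The first call was lost with limma voom (1.32, adjusted p = 0.0504), and the second passed with only the compared groups in the edgeR fit (1.03, adjusted p = 0.0415) and without QYD 65 (1.04, 0.0326) or QYD 68 (1.05, 0.0476). Other defining tuft cell genes were nearly absent: Trpm5 had 0 to 3 counts and Pou2f3 0 to 2 counts per library.

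**Figure D2:**
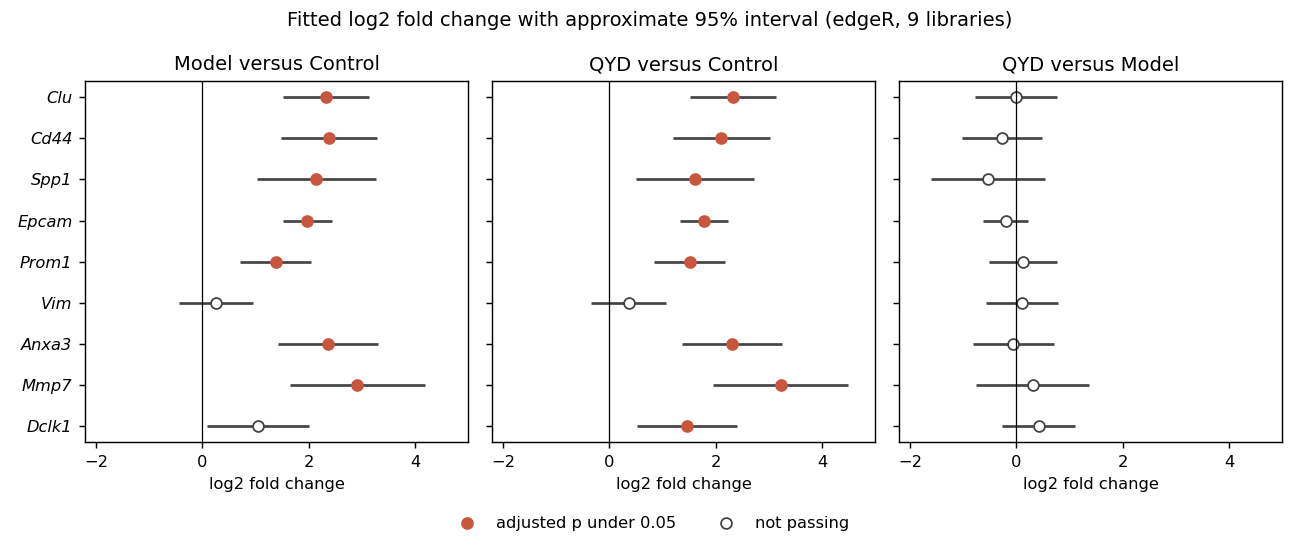
Fitted log2 fold change of each gene (points) with its approximate 95% interval (lines, 2.45 SE on either side) in the 3 comparisons, on the TMM scale; filled points passed an adjusted p of 0.05. Intervals of Vim cross 0 in all 3 comparisons, and all intervals cross 0 in QYD versus Model.

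QYD versus Model asks whether the decoction changed the injured pancreas. None of the 9 genes passed edgeR's quasi-likelihood test, none had an unadjusted p under 0.05, and none was called by DESeq2, limma voom or limma on FPKM. Over all tested genes the share called was 0%, with 750 genes (5.85%) at an unadjusted p under 0.05. Libraries of the 2 groups overlapped for all 9 genes, while 8.56% of all tested genes lay wholly higher in QYD and 8.18% wholly lower. Clusterin differed least, with a log2 fold change of -0.01 ± 0.31 and an interval of -0.78 to 0.76. The value of Spp1 was -0.54 ± 0.44 (-1.60 to 0.53), or -1.23 without QYD 68 and -0.06 without Model 56, and that of Cd44 was -0.27 ± 0.31 (-1.03 to 0.49). For Epcam it was -0.20 ± 0.17 (-0.62 to 0.22), for Anxa3 -0.05 ± 0.31 (-0.82 to 0.71), for Vim 0.11 ± 0.28 (-0.57 to 0.79) and for Prom1 0.13 ± 0.26 (-0.51 to 0.77). Mmp7 stood at 0.31 ± 0.43 (-0.75 to 1.37) and Dclk1 at 0.42 ± 0.28 (-0.26 to 1.10), or 0.09 without QYD 65. These intervals hold both higher and lower levels in QYD than in Model for each of the 9 genes.

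Some libraries were high for several genes at once. Clu, Spp1, Anxa3 and Epcam were highest in QYD 68 within QYD and in Model 56 within Model, and the duct marker sum was too, at 2357 CPM in QYD 68 and 2503 in Model 56, against 1388 to 1640 in the other 4 injured libraries. Krt8 alone made up 850 CPM of that sum in QYD 68 and 948 in Model 56. The duct genes Krt19 and Krt7 were highest in the same libraries. Krt7 had 8.45 CPM in QYD 68, against 4.59 in QYD 65 and 4.49 in QYD 66. In Model 56 it had 12.2 CPM, against 5.54 in Model 57 and 4.97 in Model 59. Sox9 and, within QYD, Cftr did not follow these keratins. Sox9 had 2.68 CPM in QYD 68, against 3.10 in QYD 65, and 3.03 in Model 56, against 3.28 in Model 59. Cftr had 0.298 CPM in QYD 68, against 0.643 in QYD 65, and 0.601 in Model 56, against 0.595 in Model 57. These Cftr values rest on 8, 22, 21 and 20 counts in the same order. The sum of 8 mesothelial markers was also highest in these libraries, at 169 CPM in QYD 68 and 190.4 in Model 56, against 86.7 to 103 in the other 4 and 47.0 to 58.0 in Control. Krt19, which is in both lists, made up 162 and 180 CPM of it, while the mesothelial genes Msln (2.38 and 3.12 CPM) and Upk3b (0.708 and 1.60) were low. Vim and Dclk1 were highest in QYD 65 and Model 57, where the fibroblast and stellate cell markers summed to 539 and 531 CPM, against 310 to 413 in the other 4. Prom1 and Mmp7 had their lowest injured value in Model 56. These patterns do not follow the QYD and Model labels, and the causes were not tested.

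**Figure D3:**
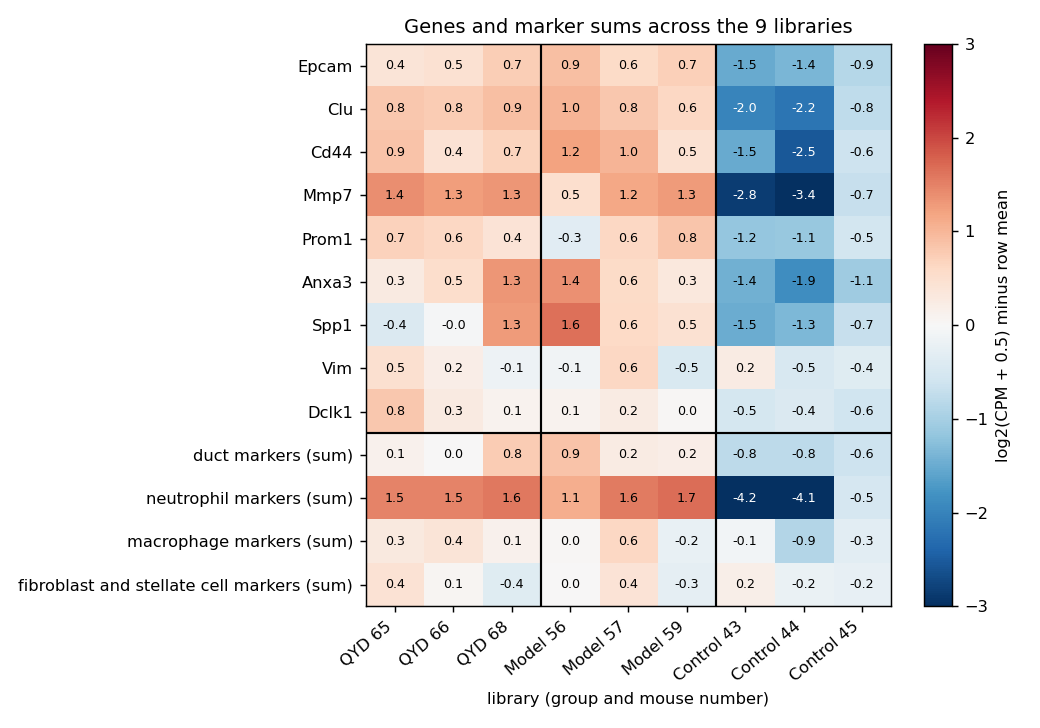
Gene-centred log2(CPM + 0.5) of the 9 genes (upper rows) and of the summed markers of 4 cell types (lower rows) in each library, red above and blue below the row mean, with colours capped at 3 log2 units and the values printed. Clu, Spp1, Anxa3, Epcam and the duct sum are highest in QYD 68 within QYD and in Model 56 within Model. Krt8 is a large part of the duct sum. The neutrophil sum in Control 45 lies between the other Control libraries and the injured ones. S100a8 and S100a9 are a small part of the neutrophil sum.

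Counts relative to Epcam in the same library do not depend on how libraries are scaled. The log2 ratio of Vim to Epcam was 1.42 lower in QYD and 1.78 lower in Model than in Control, and the libraries did not overlap in either comparison. Epcam itself rose by 1.77 in QYD versus Control and 1.98 in Model versus Control, where the median tested gene moved by 0.06 and 0.04. A gene that moved like the median would therefore also fall relative to Epcam. The share of all genes whose ratios to Epcam did not overlap was not computed. Clu to Epcam was 0.67 higher in QYD versus Control, with no overlap, and 0.46 higher in Model versus Control, with overlap. For Mmp7 the ratio was 2.03 higher in QYD versus Control, with no overlap, and 1.48 higher in Model versus Control, where Model 56 lay below Control 45. Prom1 and Dclk1 relative to Epcam were 0.67 and 0.95 lower in Model versus Control, with no overlap. For Prom1 this came mostly from Model 56, at -1.56 from the Control mean, against -0.26 in Model 57 and -0.19 in Model 59. Dclk1 had only 4, 5 and 4 counts in Control 43, 44 and 45. The remaining ratios of Spp1, Cd44 and Anxa3 overlapped in every comparison, as did all 8 ratios in QYD versus Model. With 3 libraries against 3, an exact two-sided permutation test cannot give a p below 0.1, so no ratio was called.

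**Figure D4:**
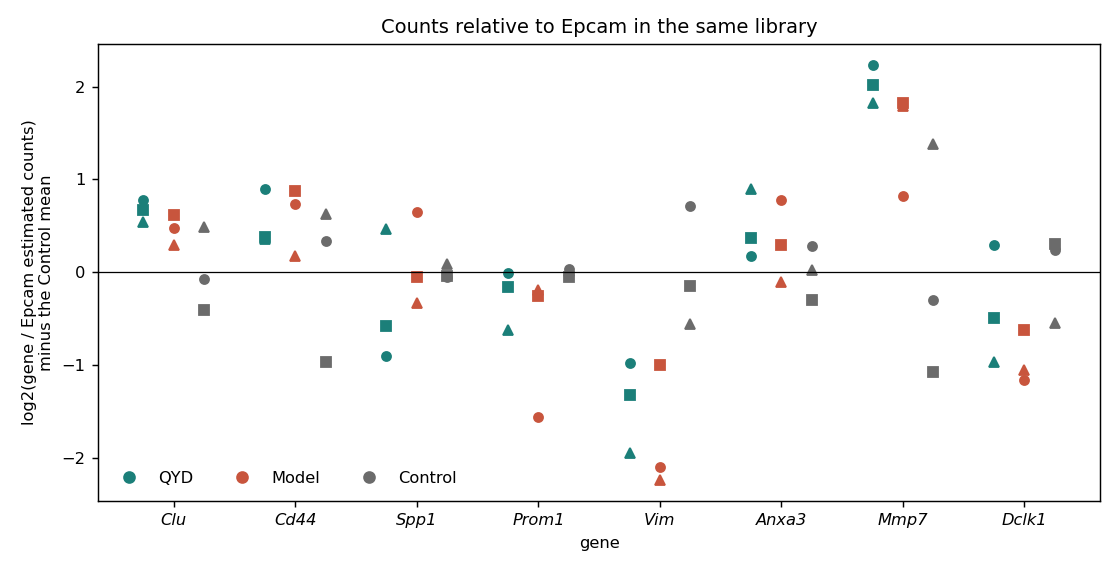
Log2 ratio of each gene's estimated counts to those of Epcam in the same library, minus the Control mean of that ratio; circles, squares and triangles are the mice of a group in order of their numbers. Vim lies below Control in all injured libraries, while Mmp7 lies above Control in all QYD libraries. Epcam itself rose in both injured groups, so a gene that moved like the median of all genes would also lie lower there.

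Similar profiles were sought among 7314 tested genes with a mean of at least 5 CPM, without predicted or clone names or missing symbols. The most similar genes over the 9 libraries had the smallest root mean square difference of gene-centred log2(CPM + 0.5). For Clu these were Siglece (0.17), Akr1b8 (0.18) and Eda2r (0.19 log2 units), and for Cd44 Selp, which encodes P-selectin (0.24), Sulf2 (0.25) and Lilrb4a (0.26). Spp1 was closest to the duct keratin Krt19 (0.29), then Plat (0.31) and Pak6 (0.32). Krt19 had 81.1, 74.9 and 162 CPM in QYD 65, 66 and 68, 180, 88.3 and 94.0 in Model 56, 57 and 59, and 29.8, 24.4 and 35.9 in Control 43, 44 and 45, with the same pair of high libraries as Spp1. Mmp7 was closest to Reg3g, an antibacterial lectin (0.18), and the neutrophil-attracting chemokine Cxcl1 (0.21), then Fpr2 (0.31). Epcam was closest to Hspb1 (0.11), Mvp (0.12) and Clic1 (0.12), and Anxa3 to Slc39a10 (0.15), Specc1 (0.18) and another annexin gene, Anxa2 (0.18). For Vim they were Cd34 (0.12), Fn1 (0.15) and Adamts2 (0.15), for Prom1 Pim1 (0.20), Vnn1 (0.22) and Soat1 (0.25), and for Dclk1 Ncoa3 (0.15), Nup160 (0.17) and Ptpn6 (0.17). Among the 9 genes themselves Clu and Cd44 were the closest pair (0.27).

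Genes that work with these 9 were described from 10 lists, some of which share genes such as Cdh1, Sdc1 and Adam17, and whose counts are given here for Model versus Control beside 2736 of 12828 tested genes higher and 2728 lower on the TMM scale, or 12064 and 121 on library totals. In the list on osteopontin receptors and its small integrin-binding family, 6 of 9 tested genes rose and none fell, with a median of 1.18. Integrin subunits Itgav (1.43 ± 0.22), Itga5 (1.53 ± 0.25) and Itgb3 (2.16 ± 0.37) rose, as did the crosslinking enzyme Tgm2 (1.18 ± 0.17). In the CD44 list of hyaluronan enzymes, cytoskeletal linkers and shedding proteases 10 of 20 rose and 4 fell, with a median of 1.02. Syndecan-1 (Sdc1) rose by 2.56 ± 0.27, the hyaluronan-degrading Cemip2 by 1.64 ± 0.23 and the sheddase Adam17 by 1.69 ± 0.24. Itih2, whose product is bound to hyaluronan, was lower (-1.87 ± 0.21), but stood at 0.27 and did not pass on library totals.

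For partners of EpCAM, 10 of 14 tested genes were called higher and 1 lower, with a median of 0.53. The membrane protease St14 (2.00 ± 0.25), E-cadherin (Cdh1, 1.51 ± 0.23) and claudin-7 (Cldn7, 1.42 ± 0.28) were among those that rose. In the prominin and progenitor list no gene rose, 3 of 11 fell and 8 did not pass, with a median of -0.39. Over all tested genes 21.3% were lower. On library totals 10 of the 11 were higher and 0 lower. Prom2, the relative of Prom1, was lower by 2.11 on the log2 scale (-2.11 ± 0.19) and Aldh1a1 and Sox9 stood at -1.47 ± 0.14 and -0.58 ± 0.20, whereas on library totals they stood at 0.04, 0.69 and 1.57. The list of clusterin receptors and lipoprotein partners was split, with 2 of 9 higher and 3 lower and a median of -0.66. The receptor gene Vldlr (-1.08 ± 0.18), Apoe (-1.85 ± 0.34) and the chaperone Hspa5 (-1.12 ± 0.14) were lower on the TMM scale and at 1.07, 0.32 and 1.03 on library totals.

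For annexins and their S100 partners the calls were 8 higher and 2 lower of 14, and the median was 0.71. Anxa2 (2.28 ± 0.32), S100a11 (2.93 ± 0.46) and S100a6 (1.03 ± 0.21) rose. Anxa13 fell by 4.23 on the log2 scale, to 0.19 ± 0.17 CPM in Model, against 3.63 ± 1.59 in Control (SD, n = 3), and was lower on library totals too (-2.10). The list of MMP7 substrates and inhibitors had 4 higher and 2 lower of 9, and a median of 0.81. Sdc1, Cdh1 and Tnf (2.37 ± 0.48) rose, and the inhibitor Timp2 was lower (-1.39 ± 0.25, but 0.78 on library totals). The list of intermediate filaments and mesenchymal regulators had 4 higher and 1 lower of 13, and a median of 0.53. Those higher were lamin A (Lmna, 0.53 ± 0.13), plectin (Plec, 0.41 ± 0.14), the transcription factor Snai1 (1.80 ± 0.46) and Cdh1, which is an epithelial gene. Of 21 regenerating epithelium genes and YAP targets 6 were higher, none was lower and the median was 0.49. The rises included the interleukin-1 antagonist Il1rn (3.15 ± 0.46), Ly6a (2.35 ± 0.37), Plaur (1.83 ± 0.36) and the YAP relative Wwtr1 (0.98 ± 0.17). Of 7 tested tuft cell genes 2 were higher and 1 lower, with a median of 0.45. Alox5ap (1.27 ± 0.24), which is also a leukocyte gene, rose, and Lrmp was lower (-0.84 ± 0.21, but 1.30 on library totals).

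The same lists in QYD versus Control gave 11 higher and 4 lower of 20 for CD44 partners, 6 and 0 of 9 for osteopontin receptors, 9 and 1 of 14 for EpCAM partners, 1 and 3 of 11 for prominin and progenitor genes and 8 and 1 of 14 for annexins. Counts were 3 and 3 of 9 for clusterin partners, 4 and 2 of 9 for MMP7 substrates and inhibitors, 6 and 1 of 13 for filament genes, 2 and 1 of 7 for tuft cell genes and 7 and 0 of 21 for regenerating epithelium. Over all tested genes there were 2624 higher and 2598 lower, or 12028 and 127 on library totals. In QYD versus Model no gene of any list passed. The list medians in that comparison ran from -0.28 to 0.12.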

How the data were processed

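Polyadenylated RNA of whole pancreas was sequenced, per the labels' protocols, with strandedness not stated there. RSEM 1.2.12, HISAT2 2.0.4, Bowtie2 2.2.5 and build GRCm38.p6 are listed in the submitters' processing notes, with no order or purpose. Per the file headers, the authors deposited read counts, taken as RSEM's estimated counts (93.5% whole within 1e-09), with FPKM and TPM values; TPM and the authors' deposited group means were not used. Groups follow the sample titles, and the treatment labels spell the decoction differently. Libraries held 19112923 to 20212744 estimated counts.

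Counts were rounded and tested with edgeR 4.0.16 (R 4.3.3): default expression filter, TMM, 1 quasi-likelihood fit of 9 libraries by group, Benjamini-Hochberg adjustment over 12828 genes, threshold 0.05. SE is the log2 fold change over the square root of F, and intervals are 2.45 SE. The test was checked on simulated counts without a shift in composition, so that check does not cover the scaling between injured and Control libraries. P-values set each group difference against the spread between these mice, which was estimated over the 3 groups and drew on other genes. No replicate pair agreed within sampling noise. List genes named are up to 4 per list with the smallest p in Model versus Control and a mean of at least 1 CPM; some are not reported here. The genes and lists were chosen with earlier results of these data known; ratios to Epcam were added after seeing the data.

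Gene positions are RefSeq's. Annotated genes overlap Cd44, Spp1, Prom1, Anxa3, Mmp7 and Dclk1; those of Prom1, Mmp7 and Dclk1 include antisense genes whose reads cannot be told apart without strand. Promoters of Clu and Anxa3 were not used here. Alternatives were RLE, library size alone, no low-count filter, 5 CPM in 3 libraries, DESeq2 1.42.0, limma 3.58.1 (voom weighted by sample; log2(FPKM + 1) and log2(FPKM + 0.1) with at least 1 FPKM in 3 libraries), only the compared groups, and each library left out.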

Additional observations from a re-analysis of the deposited data

How the results depend on the processing

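No paired analysis was possible because the groups share no mouse numbers. Model versus Control gave 5464 called genes, against 12185 on library size alone, 10083 with log2(FPKM + 1) and 10086 with log2(FPKM + 0.1). QYD versus Control gave 5222, against 12155, 10077 and 10071 in the same order. On library size 12064 were higher and 121 lower in Model versus Control, and 12028 and 127 in QYD versus Control; these alternatives have no composition factor. QYD versus Model gave 0 called genes, and 1 with limma voom and with either FPKM fit. Of the 9 genes 7 to 9 were called in Model versus Control and 7 to 9 in QYD versus Control over all alternatives, and 0 in QYD versus Model. Values that changed sign were not called on either side. In QYD versus Model these were Clu (0.00099 with at least 5 CPM and 0.00038 with limma voom), and, with 1 library left out, Clu (-0.094 to 0.099), Anxa3 (-0.44 to 0.34), Prom1 (-0.15 to 0.36) and Vim (-0.10 to 0.48). In Model versus Control Vim ranged from -0.11 to 0.52. Dclk1 in Model versus Control passed on library size and without QYD 65 or QYD 68. Dclk1 was removed by the 5 CPM and FPKM filters, and its few counts limit its precision.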
